A study of Mus musculus with 69 samples.

Results

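Interleukin 7 (IL-7) is the cytokine that keeps naive T cells alive, and the data below describe what happened to the mRNA of wild type (WT) naive CD4+ T cells of the mouse when they were kept with it. Of the 69 samples of the series, 6 were used for the main comparison, 3 libraries labelled No Cytokine (NC) and 3 labelled IL-7, chosen by their labels and not by any measured value. The mice of both groups were of the C57Bl/6 background, Stat5a+/+ Stat5b+/+ and 8 to 16 weeks old. The cells were sorted as naive (CD44 low, CD62L high) from pooled lymph nodes and spleen, with 20000 to 100000 cells a library. The larger study set out to compare the paralogous transcription factors STAT5A and STAT5B in T cells of mice with germline deletions of either gene. IL-7 was given at 10 ng/ml for 12 to 16 h by the labels and for 12 to 18 h by the methods. By the methods, cells without cytokine were processed directly after the sort, whereas the labels give the same culture protocol for every sample. If they were indeed not cultured, the effect of IL-7 and that of a night in culture away from the animal cannot be told apart, and every difference below is one between freshly sorted cells and cells cultured with IL-7. By the study's reporting summary, its RNA-seq groups held 2 or 3 mice assayed over 2 or 3 trials. The labels do not tie a library to a mouse or a trial.

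IL-7 binds a receptor made of the IL-7 receptor alpha chain (Il7r) and the common gamma chain (Il2rg), which carry the Janus kinases JAK1 and JAK3. These phosphorylate STAT5A and STAT5B, which enter the nucleus and bind short palindromic DNA motifs next to their target genes, among them survival factors such as Bcl2, kinases of the PIM family and the SOCS proteins that switch the receptor off again. A naive T cell that receives IL-7 together with weak contacts of its antigen receptor survives for weeks without dividing.

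Read counts on genes were 8275901, 9116905 and 14760837 in the NC libraries and 6705004, 34118295 and 10818161 in the IL-7 libraries. All 6 were male by their sex-linked genes. On the first principal component, which held 68.4% of the variance, the groups stood apart. The second, with 16.6%, spread both groups. Its scores were 9.47, 13.8 and −22.7 in NC replicates 1, 2 and 3 and −3.67, 15.3 and −12.2 in IL-7 replicates 1, 2 and 3. Replicate 2 was the highest and replicate 3 the lowest of each group. The label was checked against marker genes. Ccr7, the receptor that leads naive T cells into lymph nodes, had 542, 492 and 404 CPM without cytokine and 633, 663 and 749 CPM with IL-7, where CPM are counts per 1000000 of the TMM-normalized library total. Lef1, a transcription factor of naive T cells, had 623, 464 and 629 CPM without cytokine and 764, 716 and 856 CPM with IL-7. Tcf7, another naive marker, was lower with IL-7, at 1316, 1347 and 1462 CPM against 1695, 1725 and 1613 CPM. The 6 naive markers summed to 4643 to 4962 CPM without cytokine and 5649 to 6232 CPM with IL-7. The 10 memory or effector markers summed to 157 to 183 CPM without cytokine and 191 to 243 CPM with IL-7. Most of each sum was Id2, Itgb1 and Il2rb, which were higher in all IL-7 libraries. Cd44, used in the sort, was lower with IL-7, at 5.21, 5.02 and 6.31 CPM against 17.4, 26.3 and 46.2 CPM. Cxcr3, Ccl5, Tbx21, S100a4, S100a6 and Ccr2 were near 0 in both groups. The 10 B cell genes summed to 9.51 to 19.6 CPM in all 6 libraries and the 9 genes of erythroid cells and platelets to at most 0.640 CPM. The 5 CD4 T cell genes found in the table (Cd4, Zbtb7b, Cd3e, Cd3d and Cd3g) summed to 2554 to 2848 CPM without cytokine and 1488 to 1716 CPM with IL-7, while Cd8a and Cd8b1 together summed to 17.2 to 26.5 CPM. The cells thus carried the markers of their label.

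Of 10245 genes tested, 950 were higher and 758 lower with IL-7, by more than 1.5-fold at a Benjamini-Hochberg adjusted p under 0.05 in edgeR's quasi-likelihood test. These are 9.27% and 7.40% of the genes tested, 16.7% in both directions together, and the shares against which the counts for groups of genes below should be read. The lists and their members were chosen with earlier results of these data known. Their counts therefore describe the lists and are no independent support. In 50.1% of the genes tested the 3 libraries of one group all lay above the 3 of the other. The median log2 fold change of all genes tested was 0.00. "Rose" and "fell" are used below only for genes that passed this test, and log2 fold changes are of IL-7 over NC, with their standard error (SE).

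Among the genes that rose most, Ecm1, which encodes a secreted glycoprotein of the extracellular matrix, had 46.3, 45.0 and 44.9 CPM without cytokine and 1601, 2310.3 and 2013 CPM with IL-7. Its change was 5.45 on the log2 scale (SE 0.14, adjusted p = 3.73e-07), or 43.6-fold, and the spread within each group was small beside it. Myo6, an unconventional myosin of vesicle transport, had 14.9, 19.5 and 7.09 CPM without cytokine and 375, 555 and 380.3 CPM with IL-7, a rise of 5.02 (SE 0.33). Gpr34, a G protein-coupled receptor for a lysophospholipid, rose by 4.51 and the unnamed transcript D630039A03Rik by 5.24. The groups did not overlap in these 4 genes, but the rule that named the largest changes required this. Acvr1c, a type I receptor of the TGF-beta family, and Map6, a microtubule-stabilizing protein, were close to silent without cytokine. Acvr1c had 0, 3 and 2 reads in the NC libraries against 247, 1101 and 403 with IL-7, a ratio of 210 after allowing for depth (95% counting interval 89.8 to 647). Map6 had 2, 1 and 3 reads against 205, 1317 and 459, a ratio of 198 (90.8 to 540). The ratio was 66.4 (25.7 to 245) for Lama5, a laminin chain, 42.0 (20.2 to 105) for Slc7a8, a transporter of neutral amino acids, and 22.2 (11.9 to 46.6) for Fsd1l. The fitted fold changes of these 5 genes depend on the prior count, and the intervals cover counting error only.

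The largest falls were those of stress and immediate early genes, described further on, and of a few others. Dtx1, an E3 ligase of the Notch pathway that is induced in unresponsive T cells, had 211, 268 and 308 CPM without cytokine and 12.7, 16.8 and 19.3 CPM with IL-7, a change of −3.99 (SE 0.17, adjusted p = 1.30e-06). Slc16a5, of the monocarboxylate transporter family, had 84.4, 75.9 and 76.3 CPM without cytokine and 3.76, 3.75 and 5.85 CPM with IL-7, a change of −4.17. The groups of both genes did not overlap, as the rule that named the largest changes required. Lbp, known as a lipopolysaccharide-binding protein, fell by 5.34 on the log2 scale from 5.13, 7.22 and 16.8 CPM to 0.289, 0.203 and 0.274 CPM, and Gbp10, a guanylate-binding protein with close paralogs, from 7.27, 7.77 and 6.08 CPM to 0.579, 0.261 and 0.0915 CPM.

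**Figure D1:**
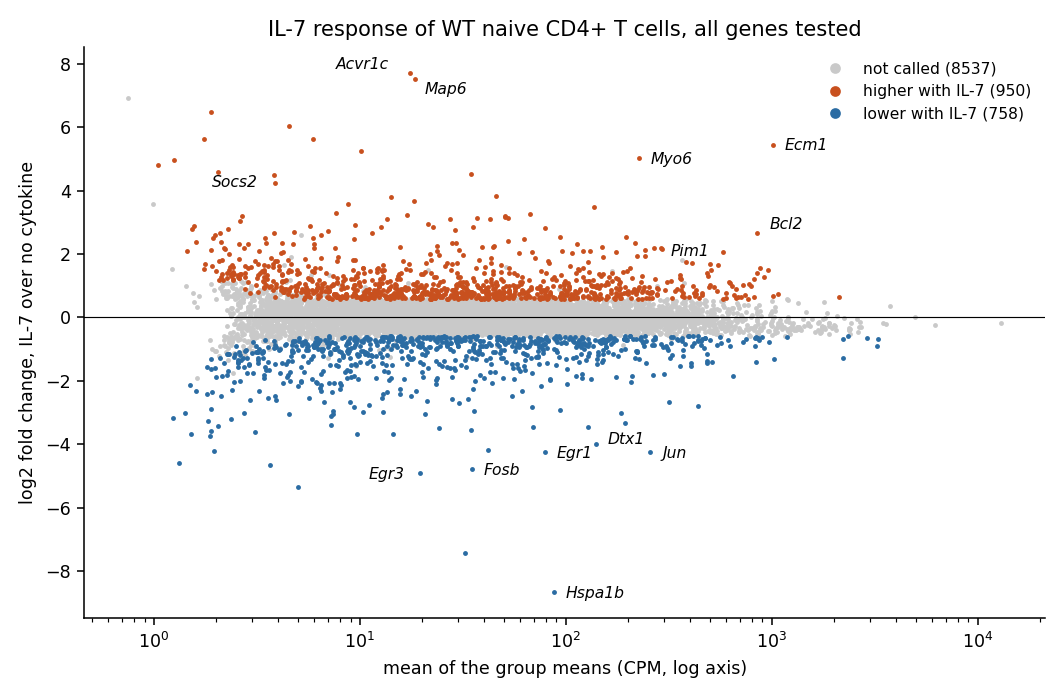
Log2 fold change with IL-7 over no cytokine (vertical axis) of each of the 10245 genes tested against the mean of the group means in CPM (horizontal log axis), 3 libraries a group. Genes called higher (950, orange) reach furthest at Acvr1c and Map6, with Ecm1, Myo6 and Bcl2 at high levels, and genes called lower (758, blue) reach furthest at Hspa1b.

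For the alpha chain of the receptor the groups overlapped. Il7r had 749, 705 and 785 CPM without cytokine and 849, 605 and 673 CPM with IL-7 (log2 fold change −0.07, SE 0.12, adjusted p = 0.702). Il2rg was lower in all 3 IL-7 libraries, at 413, 468 and 439 against 652, 644 and 616 CPM, but its change of −0.53 stayed under the fold limit. Of the 10 receptor chains tested, 3 rose and 2 fell. Il2ra, the inducible chain of the high-affinity IL-2 receptor, rose from 7.63, 5.58 and 3.91 CPM to 22.7, 58.4 and 37.9 CPM, a change of 2.86 (SE 0.36, adjusted p = 4.03e-04). The IL-4 receptor chain Il4ra rose by 0.89 (488, 477 and 457 CPM without cytokine and 812, 951 and 856 CPM with IL-7) and the shared IL-2 and IL-15 chain Il2rb by 0.82 (24.8, 21.5 and 21.8 CPM without cytokine and 37.6, 38.9 and 43.0 CPM with IL-7). Among the chains for other cytokines, Il21r fell by 0.98 (250.1, 252 and 269 CPM without cytokine and 129, 125 and 136 CPM with IL-7), and Il15ra, which is sparse at 7.15, 7.11 and 4.92 CPM without cytokine, was called at −1.03, a call that was lost in one fit over all naive CD4 libraries. Il6st (−0.49), Il6ra (0.42) and Crlf2 (−0.01) did not pass.

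Downstream of the receptor, 2 of 11 genes rose and 2 fell. Jak3 fell, with 214, 207 and 176 CPM without cytokine and 72.5, 96.0 and 91.3 CPM with IL-7 (log2 fold change −1.19, SE 0.12, adjusted p = 1.07e-04), whereas Jak1, its partner on the IL-7 receptor, was at −0.18 (adjusted p = 0.144). Stat4, which acts below IL-12, rose by 1.04 and Jak2 by 0.59, just over the limit and no longer called by DESeq2. For the STAT5 paralogs the changes were under the limits, 0.30 for Stat5b (279, 267 and 274 CPM without cytokine and 299, 338 and 372 CPM with IL-7, adjusted p = 0.0281) and −0.37 for Stat5a (86.1, 75.4 and 38.5 CPM without cytokine and 55.9, 62.9 and 33.6 CPM with IL-7, adjusted p = 0.375). Replicate 3 had the lowest Stat5a of both groups. As Stat5a and Stat5b are close in sequence, the way the authors counted could have split reads between them.

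Most genes on a list of textbook STAT5 targets rose. Of 20 tested, 12 rose, 1 fell and 7 were not called, with a median log2 fold change of 0.95, and in 18 of 20 the groups did not overlap. The genes of negative feedback were among those that rose. Cish, a SOCS family gene that STAT5 induces, had 31.1, 23.2 and 24.8 CPM without cytokine and 97.7, 126 and 107 CPM with IL-7 (log2 fold change 2.07, SE 0.13, adjusted p = 9.57e-06). Socs1 had 28.4, 32.2 and 31.9 CPM without cytokine and 79.9, 78.2 and 83.6 CPM with IL-7, a change of 1.39, and Socs3 101, 114 and 100.0 CPM without cytokine and 199, 245 and 249 CPM with IL-7, a change of 1.14. The 3 IL-7 libraries lay above the NC libraries by more than the spread of either group in all 3 genes. Socs2 was nearly silent before, with 4 reads in each NC library against 42, 311 and 74, a ratio of 21.3 (12.1 to 41.6). The other SOCS genes, Socs4, Socs5, Socs6 and Socs7, which are not known as STAT5 targets, were between −0.21 and 0.22. Thus 4 of 8 members of the SOCS family rose and none fell.

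The survival kinases Pim1 and Pim2 rose as well. Pim1 had 85.0, 137 and 91.2 CPM without cytokine and 441, 492 and 497 CPM with IL-7, a change of 2.19 (SE 0.17, adjusted p = 3.31e-05), and Pim2 had 63.4, 63.2 and 56.9 CPM without cytokine and 174, 175 and 195 CPM with IL-7, a change of 1.57, while Pim3 was at −0.38. Lta, the lymphotoxin alpha ligand, rose by 2.04 with 28.0, 26.1 and 16.1 CPM without cytokine and 82.2, 110.1 and 91.8 CPM with IL-7, and Bhlhe40, a transcription factor of cytokine production, by 2.87 (1.79, 0.984 and 1.38 CPM without cytokine and 6.51, 8.25 and 15.6 CPM with IL-7). Id2, an inhibitor of E proteins, was called at 0.62 with 63.9, 70.0 and 57.2 CPM without cytokine and 135, 85.0 and 74.7 CPM with IL-7, but IL-7 replicate 1 was well above the other IL-7 libraries and the call was lost in several alternatives. Bcl6, the repressor that directs follicular helper cells and a known target of repression by STAT5, fell by 1.93 with 22.2, 24.1 and 31.8 CPM without cytokine and 6.08, 6.24 and 8.23 CPM with IL-7 (adjusted p = 7.37e-05). The growth regulator Myc was above the NC libraries in all 3 IL-7 libraries, but at 0.52 (SE 0.12) stayed under the limit of 1.5-fold, as did Osm at 0.56. The cyclins Ccnd2 (−0.29) and Ccnd3 (−0.36), Bcl2l1 (−0.25), Gadd45g (−0.46) and Nfil3 (0.71) were not called.

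**Figure D2:**
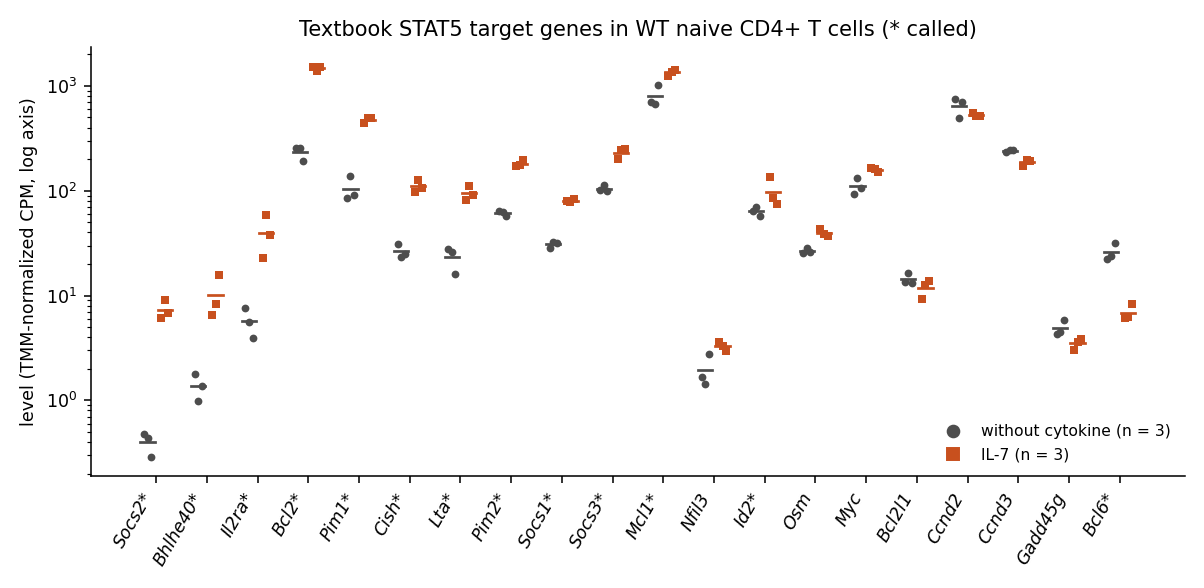
Level of each of the 20 textbook STAT5 target genes (TMM-normalized CPM, log axis) in the 3 NC libraries (grey circles) and the 3 IL-7 libraries (orange squares), bars at the mean, ordered from the highest log2 fold change to the lowest and starred where called. Socs2, Bhlhe40, Il2ra, Bcl2, Pim1, Cish and Lta lie clear of the NC libraries, and Bcl6 at the right end is the only starred gene that fell.

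Promoters of these genes were searched for the palindrome to which STAT dimers bind, to show what the sequence next to the start site looks like in genes that moved. The motif searched was TTCNNNGAA, which reads the same on both strands, in the 300 bases from 250 before to 50 after each start site in the RefSeq table (GRCm38.p6). Of the 13 genes called among the STAT5 targets and SOCS inhibitors, 11 had a promoter in the table and 4 held the motif (Cish, Socs3, Lta and Bcl6), a share of 36.4%. Only genes with a promoter in the RefSeq table could be searched. Among them the motif was found for 9.55% of all 27025 and for 8.58% of the 7881 that were tested. It was found for 9.20% of the 728 that rose and for 7.01% of the 556 that fell. Stretches of 30 bases around each match are given below, 5′ to 3′ on the strand of the gene, with the matches in capitals. The Cish stretch, at chr9:107296655-107296684 on the plus strand, holds 2 matches, at 0 and 11 bases from the start site. The Socs3 stretch lies at chr11:117969501-117969530 on the minus strand with its match at −154. The Lta stretches lie at chr17:35205484-35205513 and chr17:35205348-35205377 on the minus strand, with matches at −152 and −16. For Bcl6, which has several start sites, the match of the first promoter lies at chr16:23988951-23988980 on the minus strand, at −118, and the second promoter holds 3 matches, at chr16:23981432-23981461, chr16:23981386-23981415 and chr16:23981352-23981381 (−168, −122 and −88).
Cish: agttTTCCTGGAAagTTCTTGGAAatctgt
Socs3: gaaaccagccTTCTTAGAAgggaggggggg
Lta, distal: accatcactcTTCAGGGAAccaggcttcca
Lta, proximal: ccgactccctTTCCCAGAAcgcagtagtct
Bcl6, first promoter: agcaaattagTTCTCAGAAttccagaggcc
Bcl6, second promoter, first match: aggccgcggcTTCCTGGAAagttacttctc
Bcl6, second promoter, middle match: ggcaggagtgTTCTGTGAAatccttagagc
Bcl6, second promoter, last match: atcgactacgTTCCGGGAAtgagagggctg
Matches to the motif were thus found near start sites of Bcl6, which fell, and of the 3 genes that rose. A match is a description and not a binding site. A gene with several start sites was counted if any of them held a match. The lists hold known STAT5 targets, and no share was taken for their uncalled members. The share of 36.4% therefore does not tie the motif to the genes that moved.

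Among genes of the BCL-2 family, which decide on mitochondrial cell death, Bcl2 itself stood out. It had 256, 255 and 191 CPM without cytokine and 1509.6, 1380.1 and 1521 CPM with IL-7, a rise of 2.66 on the log2 scale (SE 0.13, adjusted p = 2.25e-06), or 6.31-fold, with no overlap between the groups. Bcl2 lies at chr1:106538178-106714274 on the minus strand of GRCm38. Mcl1, a second survival factor, rose by 0.75 with 709, 672 and 1029.8 CPM without cytokine and 1245, 1372 and 1419.6 CPM with IL-7. The pro-death gene Bcl2l11, which encodes BIM, rose too, by 1.38 with 87.0, 81.4 and 84.3 CPM without cytokine and 201, 226 and 229 CPM with IL-7. Of the effectors of cell death, Bak1 fell by 0.62 with 39.1, 43.9 and 42.9 CPM without cytokine and 23.7, 27.8 and 30 CPM with IL-7, and Bax was at 0.37 and not called. Bcl2a1b, an activation-induced survival gene with near-identical copies, was called at −1.12 (3.70, 6.13 and 3.84 CPM without cytokine and 2.32, 1.8 and 2.29 CPM with IL-7). The falls of Bak1 and Bcl2a1b were both lost without NC replicate 2, and the family held 1 lower call without IL-7 replicate 1 or 2. Bbc3, Bid, Bad and Bcl2l1 did not pass, and Bmf spread over 0.366 to 11.5 CPM without regard to group. In all, 3 of 11 tested members rose and 2 fell.

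Genes of the naive state and of the FOXO1 and KLF2 programme, which keep T cells quiescent and circulating, went both ways. Of 30 tested, 7 rose and 5 fell, with a median of 0.00. Klf2, the regulator of lymphocyte exit, rose by 1.12 (SE 0.12) with 365, 439 and 370.4 CPM without cytokine and 761, 792 and 999 CPM with IL-7, and its target S1pr1, the receptor that leads T cells out of lymph nodes, by 1.41 with 548, 510.3 and 341 CPM without cytokine and 1284, 1145 and 1281 CPM with IL-7. Klf3 (0.88), Klf6 (0.90), the quiescence factor Bach2 (0.91) and Slfn2 (0.95) rose beside them. Foxo1 itself, which drives Il7r and Klf2 in resting cells, fell by 1.03 with 439, 424 and 399.9 CPM without cytokine and 187, 197 and 235 CPM with IL-7. Id3 changed by −1.59, Dapl1 by −1.58, Igfbp4 by −0.91 and Txnip, an inhibitor of glucose uptake, by −0.61. Ccr7, Lef1 and Tcf7 were not called, at 0.51, 0.45 and −0.28.

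Of 15 homing receptors tested, 4 rose and 6 fell, and in 14 of them the groups did not overlap. The integrin chains split. Itga6 rose by 0.99 (281, 242 and 314 CPM without cytokine and 580.2, 551 and 521 CPM with IL-7) and Itga4 by 0.69, whereas Itgb2 and Itgal, the chains of LFA-1, fell, at −1.44 (519, 614 and 644 CPM without cytokine and 212, 219 and 221 CPM with IL-7) and −1.15 (624, 699 and 680.0 CPM without cytokine and 296, 311 and 291 CPM with IL-7). Itgb7, the partner of Itga4 in gut homing, fell by 0.68. Cxcr4, the receptor for CXCL12, fell by 1.85 with 205, 73.4 and 244 CPM without cytokine and 50.9, 35.8 and 60.1 CPM with IL-7, where NC replicate 2 was far below the other NC libraries.

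Immediate early genes, which are switched on within minutes of a stimulus, were mostly lower. Of 28 tested, 22 fell and 2 rose, with a median of −1.88, and in 25 the groups did not overlap. Jun had 221, 564 and 681 CPM without cytokine and 23.2, 18.6 and 36.1 CPM with IL-7 (log2 fold change −4.25, SE 0.43, adjusted p = 1.22e-04), and Fos had 199, 487 and 377 CPM without cytokine and 30.1, 40.7 and 33.7 CPM with IL-7, a change of −3.33. Egr1 had 125, 142 and 180.4 CPM without cytokine and 7.09, 6.10 and 11.3 CPM with IL-7, a change of −4.24, and Egr3 42.0, 36.2 and 34.5 CPM without cytokine and 0.723, 0.726 and 2.65 CPM with IL-7, a change of −4.91. NC replicate 1 was the lowest of its group in Jun, Fos and Egr1 and still lay above every IL-7 library. Fosb (−4.79), Egr2 (−3.67), Klf4 (−3.12), Junb (−2.80) and Nr4a1 (−2.33), which follows signals of the antigen receptor, fell with them. The brakes of these signals fell in the same libraries. The MAP kinase phosphatases Dusp6, Dusp1 and Dusp2 changed by −3.53, −2.92 and −2.04, the mRNA-decay factor Zfp36 by −1.78, and the NF-kappa B inhibitor Tnfaip3 by −1.86. The exceptions were Rgs1, a brake on chemokine receptors, which rose from 7.87, 12.6 and 11.6 CPM to 95.4, 98.7 and 88.4 CPM (3.13, SE 0.15), and Fosl2, which rose by 1.14 but was not called in one fit over all naive CD4 libraries. Summed over the list, immediate early genes gave 5605, 7106 and 7472 CPM without cytokine and 2145, 2168 and 2505 CPM with IL-7. The part of handling during the sort in these values was not tested.

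Heat shock genes, which encode the chaperones of unfolded proteins, were lower as well, and here 1 NC library weighed heavily. Of 11 tested, 9 fell, with a median of −1.40. Hspa1b, an inducible HSP70 gene with a near-identical neighbour in Hspa1a, had 67.9, 103 and 355 CPM without cytokine and 0.289, 0.348 and 0.732 CPM with IL-7 (log2 fold change −8.66, SE 0.89, adjusted p = 1.38e-04). Hsph1 had 233, 163 and 1241 CPM without cytokine and 92.3, 76.9 and 87.1 CPM with IL-7, Hsp90aa1 496, 462 and 2076 CPM without cytokine and 279.7, 278 and 289.5 CPM with IL-7 and Dnajb1 171, 180.3 and 639.6 CPM without cytokine and 93.8, 86.4 and 92.2 CPM with IL-7. In 10 of the 11 genes NC replicate 3 was the highest library, and it exceeded the mean of NC replicates 1 and 2 by a median of 3.46-fold, with a range over the genes of 0.922 to 6.27. Replicates 1 and 2 exceeded the mean of the IL-7 libraries by a median of 1.53-fold, with a range of 1.20 to 187. The number of genes called lower was 6 without NC replicate 3 and 4 without each one of IL-7 replicates 1, 2 and 3, and DESeq2 called 5. The chaperonins, which fold actin and mitochondrial proteins, followed replicate 3 too, at a median of 1.55-fold over the other NC libraries, and only the mitochondrial Hspe1 (−1.30) and Hspd1 (−1.07) of 12 were called. The number called was 1 without NC replicate 3, without IL-7 replicate 1, 2 or 3, and in DESeq2. The part of stress in that 1 sample was not tested.

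**Figure D3:**
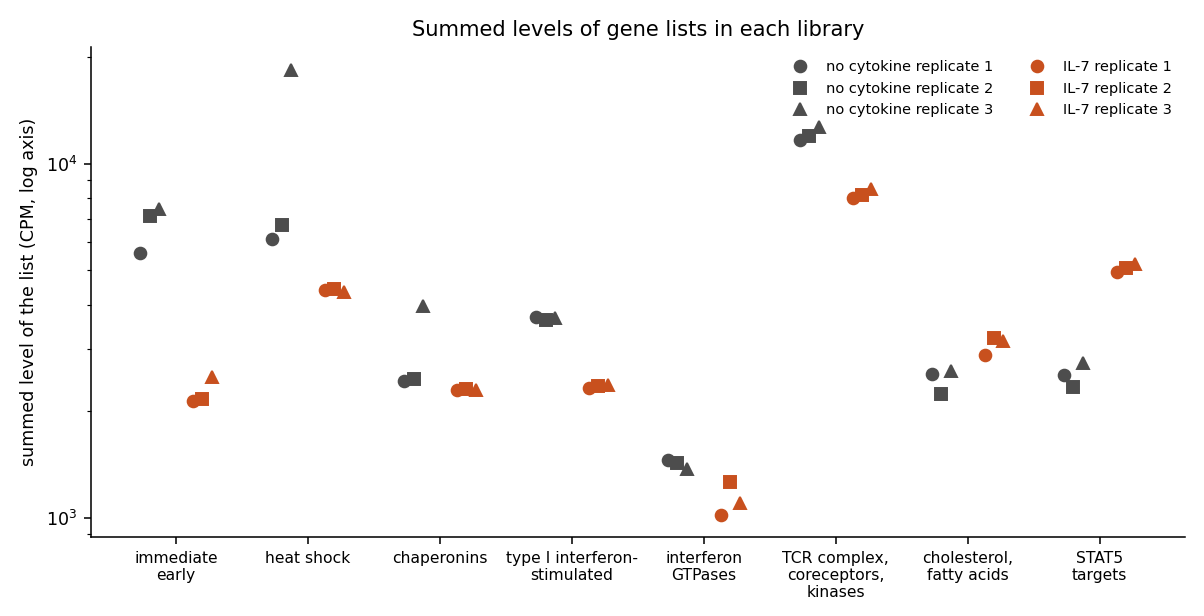
Level summed over the members of 8 gene lists (CPM, log axis) in each NC library (grey) and IL-7 library (orange), with the replicate given by the shape. NC replicate 3 stands apart for heat shock genes (18444 CPM against 6141 and 6699 CPM) and chaperonins, while immediate early, type I interferon-stimulated and T cell receptor genes are lower in all IL-7 libraries and STAT5 targets higher.

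Genes stimulated by type I interferon, the antiviral cytokine to which resting lymphocytes are exposed at a low level, were mostly lower. Of 38 tested, 27 fell, 0 rose and 11 were not called, the median was −1.11, and 35 of 38 had a log2 fold change below 0. Irf7, the factor that amplifies interferon production, had 91.6, 95.5 and 77.3 CPM without cytokine and 25.03, 30.4 and 31.9 CPM with IL-7 (log2 fold change −1.58, SE 0.12, adjusted p = 2.22e-05), and Ifit1, which binds viral RNA, had 24.7, 26.0 and 27.8 CPM without cytokine and 4.34, 6.71 and 4.76 CPM with IL-7, a change of −2.25. Mx1 (−3.43), Rsad2 (−3.20) and Cmpk2 (−3.04), of which Cmpk2 had 13.6, 13.2 and 13.3 CPM without cytokine and 1.01, 2.21 and 1.10 CPM with IL-7, fell most. The sensors of viral RNA Ddx58 and Ifih1 both changed by −0.70. The 3 NC libraries were close to each other here, with summed levels of 3689, 3615 and 3675 CPM against 2328, 2365 and 2381 CPM. Of 13 interferon-induced GTPases, which attack intracellular pathogens and have many paralogs, 6 fell and 0 rose. Gbp6 changed by −1.81, Irgm1 by −1.50 and Gbp8 by −1.27, and 1 member was called higher without NC replicate 3 and 2 without IL-7 replicate 1. Of 19 genes of MHC class I and antigen processing only the immunoproteasome subunits Psmb10 (−0.79) and Psmb9 (−0.73) passed, though all 19 lay below 0, and without NC replicate 3 or IL-7 replicate 2 the count was 5 or 4.

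Other cells than T cells could carry some of these genes. The 7 dendritic cell markers summed to 41.1 to 58.7 CPM without cytokine and 23.7 to 25.8 CPM with IL-7, of which nearly all was Bst2, itself an interferon-stimulated gene, and Clec9a and Siglech were at or near 0. The 8 NK cell markers summed to 37.3 to 64.7 against 16.0 to 18.4 CPM, nearly all Prf1, while Ncr1 and Klrb1c were at or near 0. Of 5 myeloid markers tested 3 fell, Lyz2 by 3.17, from 30, 18 and 19 reads to 1, 13 and 0, Cd68 by 0.93 and Itgam by 0.81. The 11 myeloid markers in the table summed to 43.2 to 49.3 CPM without cytokine and 31.2 to 49.5 CPM with IL-7. The largest part of each sum was Cst3, which was not called. Cst3 had 26.7, 24.6 and 29.2 CPM without cytokine and 32.1, 28.0 and 22.9 CPM with IL-7. Cd14 was at or near 0. The part of other cells in the falls was not tested. In such bulk samples, fewer cells of a type and less RNA per cell cannot be told apart.

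The machinery of antigen recognition was lower with IL-7. Of 20 genes of the T cell receptor complex, its coreceptors and proximal kinases, 9 fell, 0 rose, and 19 lay below 0, with a median of −0.55. Cd4 had 1047, 1015 and 1172 CPM without cytokine and 590.1, 687 and 699 CPM with IL-7 (log2 fold change −0.71, SE 0.09, adjusted p = 4.50e-04), and the kinase Lck fell by 0.66. Cd3g (−0.83) and the adaptor Lat (−0.80) fell. So did the negative regulators Ptpn6 (SHP-1), a phosphatase, at −1.82 with 342, 389 and 514 CPM without cytokine and 124, 112 and 115 CPM with IL-7, Cd6 at −1.21 and the kinase Csk at −0.74. The summed level of the list went from 11692, 11999 and 12716 CPM to 8027, 8152 and 8492 CPM.

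Surface genes of activated T cells split in 2 sets. Of 13 tested, 5 rose and 6 fell. Cd69, an early activation marker that also keeps S1PR1 off the surface, had 87.9, 95.6 and 94.97 CPM without cytokine and 14.5, 11.7 and 25.1 CPM with IL-7 (log2 fold change −2.47, SE 0.23), Cd44, used in the sort, 17.4, 26.3 and 46.2 CPM without cytokine and 5.21, 5.02 and 6.31 CPM with IL-7 (−2.46), and Cd5, whose level follows the strength of self recognition, 436, 564 and 372 CPM without cytokine and 165, 227 and 168 CPM with IL-7 (−1.29). Tnfrsf9 (−1.72), Pdcd1 (−1.28) and Cd40lg (−1.20) fell as well. In contrast, the costimulatory receptor Tnfrsf4 (OX40) had 10.3, 10.1 and 6.88 CPM without cytokine and 65.4, 83.3 and 80.5 CPM with IL-7 (log2 fold change 3.11, SE 0.16, adjusted p = 3.68e-06), and Tnfrsf18 (GITR) 40.3, 41.9 and 33.3 CPM without cytokine and 165, 216 and 185 CPM with IL-7 (2.31). Nt5e, the ectoenzyme CD73, rose by 2.48, Icos by 0.63 and Ctla4 by 1.10, and without IL-7 replicate 3 the number of higher calls was 3. Tnfsf8 (CD30 ligand, 2.1) and Tnfrsf26 (2.1) rose among the further members of the TNF superfamily.

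Several of the genes that rose mark regulatory T cells. The 5 regulatory T cell markers summed to 39.4 to 58.7 CPM without cytokine and 121 to 170 CPM with IL-7, and 3 of them rose (Il2ra, Ctla4 and Ikzf4, the last by 3.13 with 8.59, 9.30 and 5.36 CPM without cytokine and 63.4, 61.3 and 75.0 CPM with IL-7). Foxp3, the defining factor of that lineage, had 27.1, 25.7 and 19.8 CPM without cytokine and 23.01, 30.5 and 19.9 CPM with IL-7 and did not differ beyond its spread (log2 fold change 0.04, SE 0.18, adjusted p = 0.88), and Ikzf2 (Helios) fell by 0.86. Of 22 factors of helper lineages tested, 6 rose and 9 fell. Prdm1, which encodes BLIMP-1 and opposes Bcl6, rose by 1.54 with 7.51, 10.2 and 8.11 CPM without cytokine and 25.9, 24.4 and 24.7 CPM with IL-7, and Rora (0.93) and Hif1a (0.87) rose. Irf8 (−3.05), Eomes (−2.33), Batf (−1.31), Zbtb7b (−1.27), the factor that fixes the CD4 lineage, Tox (−1.10) and Gata3 (−1.03) fell. Of 22 genes on a list of cytokines, 3 reached the level for a test (Il16, Osm and Tgfb1), none of which was called. Il2 had 0, 0.219 and 0.0724 CPM without cytokine and 0, 0 and 0 CPM with IL-7, and Il17a is listed at 0 throughout. Lta and Tnf were not on that list.

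Metabolic genes did not move as one group. Of 39 tested genes of cholesterol and fatty acid synthesis, 14 rose and 3 fell, with a median of 0.36. The rise was in the cholesterol pathway, where 10 of 20 rose and 0 fell. Idi1 had 31.6, 18.3 and 24.8 CPM without cytokine and 57.2, 69.8 and 64.4 CPM with IL-7 (log2 fold change 1.37, SE 0.17, adjusted p = 3.78e-04) and Acat2, a first step, 14.9, 9.84 and 13.97 CPM without cytokine and 41.8, 55.0 and 54.7 CPM with IL-7 (1.98). Sqle (1.27), Mvd (1.13) and the sterol sensor Insig1 (1.10) rose with them, and the fatty acid elongase Elovl6 by 1.73. The cholesterol exporter Abca1 fell by 2.58 with 68.7, 34.7 and 40.8 CPM without cytokine and 8.54, 7.17 and 8.6 CPM with IL-7, Mylip, a ubiquitin ligase of lipid uptake, fell by 0.74, and the desaturase Scd2 fell by 1.92. Hmgcs1 is listed at 0 in all 6 libraries.

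Among regulators of mTORC1, the kinase complex that senses nutrients, 4 of 25 rose and 1 fell. Rragd, a GTPase of its lysosomal recruitment, had 3.34, 2.63 and 2.1 CPM without cytokine and 33.1, 31.9 and 36.1 CPM with IL-7 (log2 fold change 3.68, SE 0.17, adjusted p = 1.64e-06), and Fnip1, a folliculin partner, 62.1, 57.2 and 55.9 CPM without cytokine and 204, 199 and 188 CPM with IL-7 (1.76). Sesn1 rose by 0.88. Ddit4 (REDD1), a stress-induced brake, fell by 3.45 with 347, 99.5 and 261 CPM without cytokine and 20.4, 19.4 and 25.3 CPM with IL-7, and without NC replicate 2 the number of lower calls was 2. Among the genes of ATF4 and the unfolded protein response, 3 of 19 rose and 5 fell. Trib3 rose by 2.95 with 4.65, 4.92 and 5.07 CPM without cytokine and 37.3, 40.6 and 35.0 CPM with IL-7 and Xbp1 by 1.03, while the ER chaperone Hspa5 (−1.52), Cebpb (−2.66) and Atf4 (−0.66) fell. Of 20 autophagy genes 4 rose, among them Gabarapl1 by 2.09 and the kinase Ulk1 by 0.91. In glycolysis, of 19 tested, Eno1 rose (0.79) and Ldha fell (−0.59, close to the limit). Of 41 genes of the pentose phosphate pathway and of serine, one-carbon and nucleotide synthesis, 6 fell and 0 rose, among them Phgdh (−0.87), Psat1 (−0.91) and Mthfd2 (−0.89). None of 76 nuclear-encoded subunits of oxidative phosphorylation and none of 11 amino acid transporters was called.

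Genes of growth and division were not called at one rate, set against the 16.7% of all genes tested. Among genes of ribosome biogenesis, cytosolic ribosomal proteins and DNA replication, the share called was below 16.7%. In the short lists of mitosis and of the G1 phase the share was above 16.7%. For falls alone, the share in ribosome biogenesis was also above that of all genes tested. Of 84 genes of ribosome biogenesis, 8 fell and 0 rose (Rrp15 at −1.06, Rrp12 at −1.02, Utp20 at −0.95), with a median of −0.19. Of 76 cytosolic ribosomal protein genes, 74 lay below 0 at a median of −0.35, but 4 were called, or 7 without IL-7 replicate 2, and Rps27, the one that fell most, had only 6.44, 8.31 and 6.15 CPM without cytokine in a family rich in pseudogenes. Of 42 genes of DNA replication 3 fell and 0 rose, Rfc4 at −1.22, and of 16 mitotic genes that reached the level for a test 3 rose and 2 fell, while 17 did not reach it, among them Cdk1 with 0.715, 0.438 and 0.362 CPM without cytokine and 0.289, 0.465 and 0.640 CPM with IL-7. Mki67, the proliferation marker, was called at −0.87 with 5.96, 7.55 and 4.56 CPM without cytokine and 4.05, 3.46 and 2.38 CPM with IL-7, a call lost in several alternatives. The G1 kinase Cdk6 rose by 3.09 (SE 0.18, adjusted p = 5.95e-06) with 5.25, 5.47 and 6.51 CPM without cytokine and 44.3, 61.6 and 41.4 CPM with IL-7. Of 4 kinase inhibitors tested, 2 rose and 1 fell. Cdkn1b (p27) rose by 0.60, and Cdkn1a (p21) from 0, 2 and 0 reads to 7, 51 and 39, a ratio of 29.1 (7.83 to 243), while Cdkn2d (p19), an inhibitor of CDK4 and CDK6, changed by −1.09 with 3.22, 3.17 and 3.98 CPM without cytokine and 1.74, 1.25 and 2.1 CPM with IL-7 (adjusted p = 0.0279). The number of higher calls among 12 genes of the G1 phase was 3, and 1 without IL-7 replicate 3. Among them 1 was called lower, and 0 without NC replicate 1, 2 or 3 or without IL-7 replicate 1 or 2.

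**Figure D4:**
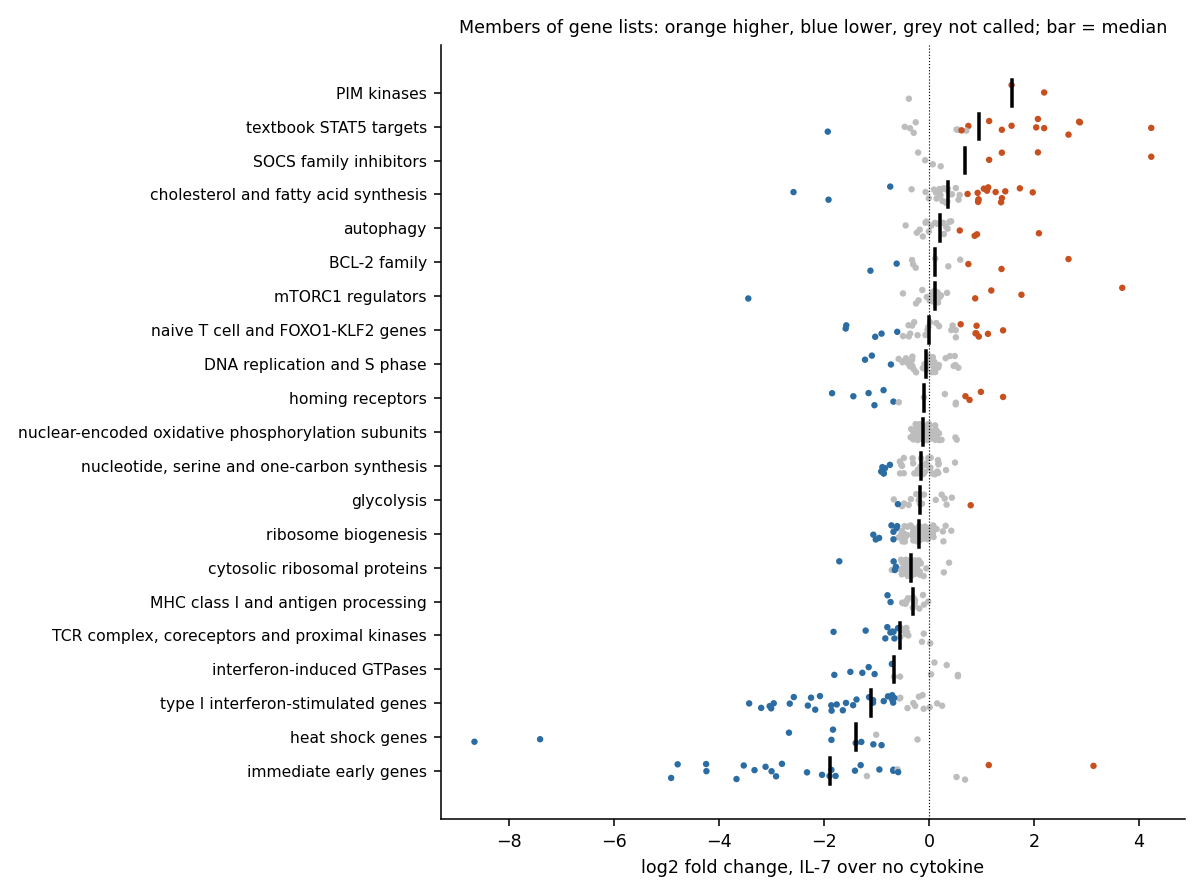
Log2 fold change with IL-7 over no cytokine (horizontal axis) of every tested member of 21 gene lists, each point a gene, with called genes in orange (higher) or blue (lower), other genes in grey and the median of a list as a black bar. The medians run from 1.57 for the 3 PIM kinases to −1.88 for immediate early genes, and oxidative phosphorylation shows grey points only.

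The response of WT cells was set against that of cells with fewer Stat5 alleles. BBA mice (Stat5a+/- Stat5b-/-) keep 1 allele of Stat5a as their only Stat5 gene in all cells from the germline on, and their naive CD4+ T cells were measured in 2 libraries without cytokine and 3 with IL-7. Stat5b reads were still counted in BBA cells, at 95.2 and 104 CPM without cytokine. By the methods one chromosome lacks the whole locus of both genes, and the part of Stat5b removed from the other is not given in the sources used here. The difference between the log2 fold changes of WT and BBA cells was tested as an interaction. Of 10460 genes, 126 differed (1.20%), 95 with the difference (WT minus BBA) above 0 and 31 below 0. These counts were 147 and 102 in DESeq2 and 171 and 103 with no filter, and the second was 50 with a replicate block. The second count was 18 and 17 without WT IL-7 replicates 1 and 2 and 62 without BBA IL-7 replicate 2, the counts were 62 and 19 without BBA NC replicate 1, and the first was 56 without BBA NC replicate 2. Of the 943 genes that rose in WT and were tested here, 527 also rose in BBA cells and 4 fell, and of the 755 that fell, 375 also fell and 1 rose. Their median log2 fold changes were 0.90 in WT and 0.73 in BBA cells for the former and −0.99 and −0.70 for the latter. The genes were picked by their call in WT, and the share of all genes called in BBA cells is not reported here. How much of the response was shared cannot be read from these counts. An effect called in one genotype and not in the other is not taken as a difference here unless the interaction was called.

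The STAT5 targets differed from each other in this respect. Cish was at 16.95 and 18.6 CPM in BBA cells without cytokine and 18.9, 25.2 and 12.3 CPM with IL-7, a change of 0.09 against 2.07 in WT (difference 1.98, SE 0.31, adjusted p = 0.00835). Socs1 (1.33), Socs3 (0.95) and Lta (2.69) differed in the same direction. Myc and Osm, which stayed under the limit in WT, fell in BBA cells, Myc from 90.6 and 137 CPM to 48.8, 67.0 and 56.4 CPM, with differences of 1.52 and 1.29. Bcl2, in contrast, went from 173 and 194 CPM to 881, 758 and 911 CPM in BBA cells, a change of 2.21, and the difference of 0.44 (SE 0.18, adjusted p = 0.388) was not called. Pim1 rose by 1.89 in BBA cells, with 85.0 and 92.4 CPM and 310.4, 335 and 339.7 CPM (difference 0.30, SE 0.22), and Pim2 by 1.35 (difference 0.22). These 3 survival genes rose in both genotypes. Over the 19 STAT5 targets in this fit, the median was 1.14 in WT and 0.09 in BBA, and 6 of them differed.

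Other genes named above differed as well. Ecm1 had 51.0 and 53.4 CPM without cytokine and 60.6, 99.0 and 85.2 CPM with IL-7 in BBA cells, a difference of 4.80 (SE 0.25) from WT. Rgs1 (4.11), D630039A03Rik (6.06), Rragd (2.29), Fnip1 (1.31), Tnfrsf4 (1.98), Tnfrsf18 (1.43), Il4ra (1.35), Bcl2l11 (0.86) and Acat2 (1.71) also changed less in BBA cells. Acat2 was the only member of the cholesterol and fatty acid list to differ. Of the interferon genes, 5 of 38 stimulated genes and 3 of 13 GTPases differed, all with the more negative change in WT. Rtp4 (−2.36), Irgm1 (−1.95), Gbp2 (−1.62) and Gbp6 (−1.31) were among them. Irgm1 averaged 2510 normalized counts over all libraries of this fit and 1241 over the WT libraries alone, each scaled to its own mean depth. By the paper, several or all of the Stat5-deficient mouse lines have some baseline inflammation, and its part in these differences was not tested. Of the 29 immediate early genes in this fit, 20 fell in BBA cells, with a median of −1.22 against −1.86 in WT, and the interaction was called for 2 (Rgs1 and Myc, both with the more positive change in WT). Egr1, for example, changed by −3.17 in BBA cells and −4.24 in WT, a difference of −1.08 (SE 0.31, adjusted p = 0.157).

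**Figure D5:**
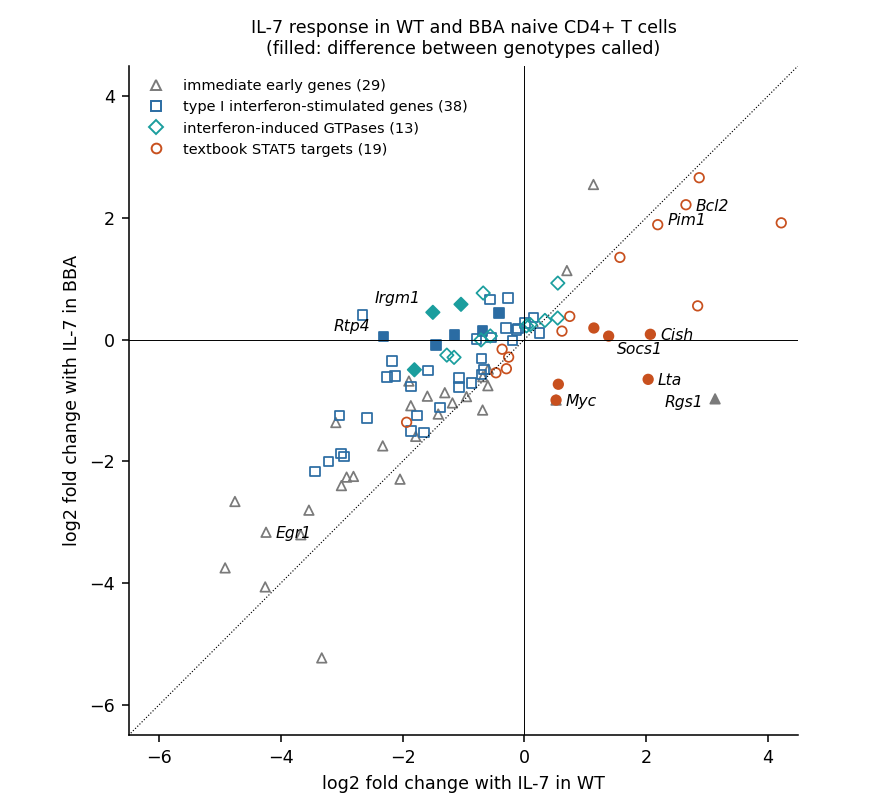
Log2 fold change with IL-7 over no cytokine in BBA naive CD4+ T cells (vertical axis, 2 NC and 3 IL-7 libraries) against that in WT cells (horizontal axis, 3 and 3) for members of 4 gene lists, filled where the difference between genotypes was called, with a dotted line of equal change. Cish, Socs1 and Lta lie near or below 0 on the BBA axis, Bcl2 and Pim1 near the line, and most immediate early genes fall in both genotypes.

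Naive CD8+ T cells of WT mice with and without IL-7 (2 libraries each) were the most similar cells for a comparison across lineages. The libraries of this CD8+ comparison differ in sex by their sex-linked genes. Xist was at 910.4 and 1038 CPM without cytokine and 2.11 and 5.09 CPM with IL-7, and Ddx3y at 0.0738 and 0 against 152 and 189 CPM, so in the CD8+ cells sex and IL-7 cannot be told apart. Of 10516 genes, 632 (6.01%) differed in their change, 395 with the difference (CD4+ minus CD8+) above 0 and 237 below 0, and these counts were 136 and 72 without CD8 NC replicate 2, 155 and 83 without CD8 IL-7 replicate 1, 232 and 123 without CD8 IL-7 replicate 2, 260 and 129 without CD8 NC replicate 1 and 243 and 139 without CD4 IL-7 replicate 2, and the second was 147 without CD4 IL-7 replicate 3. Of the 944 genes that rose in CD4+ cells and were tested here, 548 also rose in CD8+ cells and 13 fell, and of the 755 that fell, 490 also fell and 5 rose. Their median log2 fold changes were 0.91 in CD4+ and 0.74 in CD8+ cells for the former and −0.98 and −0.94 for the latter. The genes were picked by their call in CD4+ cells, and the share of all genes called in CD8+ cells is not reported here. Cish rose in both lineages, by 2.08 and 2.32 (difference −0.25, SE 0.22). Bcl2 rose by 2.66 in CD4+ cells and 2.0 in CD8+ cells (difference 0.65, SE 0.17, adjusted p = 0.0425), from 376 and 334 CPM to 1409 and 1436 CPM in the latter. Socs1 (0.78), Socs3 (0.95), Pim2 (0.86), Bhlhe40 (2.42) and Id2 (1.10) also had the more positive change in CD4+ cells. Of 40 genes of cholesterol and fatty acid synthesis in this fit, 7 had the more positive change in CD4+ cells and 1 the more negative. Sqle (1.24), Mvk (0.88), Srebf2 (0.74), Srebf1 (0.73) and Mvd (0.70) were among the former, and the latter was Acat2 (−1.29), which went from 13.1 and 9.34 CPM to 109 and 105 CPM in CD8+ cells. Map6, close to silent in CD4+ cells without cytokine, had 0.443 and 0.0563 CPM without cytokine and 0.649 and 0.0909 CPM with IL-7 in CD8+ cells (difference 6.78, SE 1.26).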

How the data were processed

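Poly(A)+ RNA of sorted cells was sequenced by the authors as single-end reads of 50 bases. The deposited values are raw counts, one per gene symbol and library. By the study's methods the reads were aligned to mm10 with tophat2 and counted with htseq-count. The submitters' processing notes name mm9, TopHat2, Cufflinks and HTSeq. Neither the gene annotation nor the strand setting is given in the sources used here, so reads of paralogs, pseudogenes, overlapping and antisense genes may be split or shared. Groups came from the sample labels. Of 69 samples, 2 carry conflicting cytokine labels and were left ungrouped.

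Counts were fitted with edgeR 4.0.16 under R 4.3.3 (TMM, quasi-likelihood test in its older form, Benjamini-Hochberg adjustment over all genes tested), after a re-implementation of the HTSFilter rule: 100 candidate limits between 1 and 200 normalized counts were scored by the Jaccard index between replicates, smoothed by loess (span 0.3). The best limit was 49.2, and a gene had to exceed it in at least 1 library. A gene was called at an adjusted p under 0.05 and a change of more than 1.5-fold. Differences between responses were interaction terms, fitted on the WT libraries with those of BBA CD4+ or WT CD8+ cells. The biological coefficient of variation was 13.2%. Ratios of genes with 2 to 12 NC reads are of depth-scaled totals with exact 95% intervals for counting error only. The main fit and the BBA interaction were tried on simulated counts with the same dispersion for every gene and no outlying library. The CD8+ interaction was not simulated.

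The genes named follow a rule: the 10 largest changes each way among called genes averaging 50 or more normalized counts whose groups did not overlap, up to 3 called members in each direction of each list, all members of the receptor, JAK and STAT, SOCS, STAT5 target, BCL-2 and PIM lists, and up to 5 in each direction for each interaction. Further members of lists were named after their values were seen. Some members that the rule names are not reported here. The members and lists were chosen with earlier results of these data known. Positions are those of the GRCm38 annotation, and promoter sequences are from RefSeq (GRCm38.p6).

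Alternatives were filterByExpr or no filter, DESeq2 size factors, DESeq2 1.42.0, the edgeR 4 quasi-likelihood, a replicate block, Bonferroni adjustment, a limit of 2-fold, one fit over all naive CD4 libraries, and leaving out each library in turn.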

Additional observations from a re-analysis of the deposited data

Results flagged for a closer look

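The genes below are those with the largest called differences between the IL-7 response of WT naive CD4+ cells and that of another group of cells, as the difference of log2 fold changes (WT CD4+ minus the other), by an interaction term in edgeR.

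Against naive WT CD8+ cells the largest differences included the sex-linked genes Xist (8.79) and Tsix (9.19) and the Y-linked genes Kdm5d (−13.16), Ddx3y (−12.17), Uty (−12.00) and Eif2s3y (−10.93). Xist was at 910.4 and 1038 CPM in CD8+ libraries without cytokine and 2.11 and 5.09 CPM with IL-7, so there sex and IL-7 cannot be told apart. Ltf (6.95) and Ngp (6.42), granule genes of neutrophils, fell in CD8+ cells with IL-7 and lay below the filter on low counts when CD4+ cells were fitted alone. Map6 (6.78) rose in CD4+ cells and was not called in CD8+ cells, and Rnaset2b (−5.44) rose in CD8+ cells and was not called in CD4+ cells.

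Against BBA naive CD4+ cells the differences were 6.06 for D630039A03Rik, 4.80 for Ecm1, 4.11 for Rgs1 and 3.21 for 3110082I17Rik, all of which rose in WT cells. Tnf, which encodes the inflammatory cytokine TNF, differed by 3.15. It fell in BBA cells, from 29.1 and 37.0 CPM to 2.45, 3.66 and 2.87 CPM, and was not called in WT cells, where its groups overlapped. The interferon-induced Gbp10 (−4.11), Rtp4 (−2.36) and Irgm1 (−1.95) fell in WT cells and were not called in BBA cells. Gbp10 averaged 242 normalized counts over all libraries of this fit and 51.2 over the WT libraries alone, each scaled to its own mean depth. The part of baseline inflammation in these differences was not tested. Klrd1 (−3.24), which encodes the NK receptor chain CD94, fell in WT cells and rose in BBA cells. Ksr2 (−2.20) rose in BBA cells and was not called in WT cells.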

How the results depend on the processing

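None of the 1708 genes called changed sign under an alternative that tested it. Between 1437 and 1703 of them were called again by another filter, fit or set of libraries at the same limits (1693 to 1708 of them were tested). Of 136 named genes with a call, DESeq2 did not call Jak2 and Hspd1, the block did not call Tnfsf10 and Id2, and one fit over all naive CD4 libraries lost 8 (Il15ra, Fosl2, Uhrf1, E2f2, Mki67, Plk2, Eif4ebp1 and Id2). Genes higher and lower numbered 201 and 145 with Bonferroni adjustment and 409 and 372 with a limit of 2-fold, which are stricter by construction, and 841 to 985 and 686 to 740 when each library was left out. For the difference from CD8+ cells (395 above 0, 237 below), the counts were 744 and 486 with no filter, 21 and 12 with Bonferroni adjustment, 175 and 87 at 2-fold, and 136 to 455 and 72 to 314 without each library. For the difference from BBA cells (95 above 0, 31 below) they were 171 and 103 with no filter, 147 and 102 in DESeq2, 30 and 3 with Bonferroni adjustment and 56 to 115 and 17 to 62 without each library, and 56 were above 0 at 2-fold. Apart from the stricter limits, the cause was not tested.

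The replicate numbers shared by the labels paired the libraries only in part, and the main fit held no term for the replicate. Departures from the group mean correlated at −0.00793, 0.549 and 0.508 between NC and IL-7 libraries numbered 1, 2 and 3. NC replicate 1 correlated best with IL-7 replicate 2, and IL-7 replicate 1 with NC replicate 3, while the libraries numbered 2 and those numbered 3 were each other's best partners, a hint from the data and not the design. With a replicate block 1025 genes were higher and 817 lower, and 1694 of the 1708 calls were made again. In the BBA comparison the block left 50 differences below 0.

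Genes that were not called and whose log2 change turned sign when 1 library was left out were Crlf2 (−0.13 to 0.12, above 0 without NC replicate 2, at 0.03, or IL-7 replicate 3), Socs7 (−0.178 to 0.0672, above 0 without NC replicate 3), Il7r (−0.227 to 0.0367, above 0 without IL-7 replicate 2), Bmf (−0.81 to 3.30, below 0 without IL-7 replicate 2) and Socs5 (−0.0477 to 0.368, below 0 without IL-7 replicate 3). Depth limits genes near the floor of 3 reads, which is 0.0871 to 0.434 CPM over the 6 libraries, and with 3 libraries a group weak changes can be missed.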
